A study of Mus musculus with 3 samples.

Results

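RNA that lies outside intact cells was described here from droplet barcodes with few molecules, in 3 single-cell RNA-seq libraries of mouse neural progenitors. A barcode marks 1 droplet, and a unique molecular identifier (UMI) marks 1 captured RNA molecule. Low-count barcodes were those with more than 100 and up to 1500 UMIs. Cells were barcodes with at least 6000 UMIs, at least 500 genes detected and at most 20% of UMIs from mitochondrially encoded (mt-) genes. The members were thus chosen by their UMI totals, and a low total is no finding about them. They numbered 63687 of 4973189 listed barcodes: 47586 in the control library, 7714 after bulk electroporation and 8387 after localized electroporation. The cells of the same libraries numbered 5038, 4923 and 5805.

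The progenitors came from brains of postnatal day 1 mice and were grown as neurospheres, floating clusters of dividing cells, with 20 ng/mL epidermal growth factor. Strain, genotype and cargo are not named in the labels. About 50000 cells were plated on poly-D-lysine for 16 h, and all libraries, the control included, are labelled as collected 4 h after treatment. Bulk electroporation was done in a Lonza 4D Nucleofector Y unit with program DS137, and localized electroporation with 400 pulses of 20 V on the device that the cells grew on. The labels do not say whether control cells lay on a dish or on a device, so surface and pulse cannot be told apart. Cells were then freed with trypsin, washed, suspended in PBS and loaded at 10000 per library. Each treatment had 1 library, so no difference between treatments has a replicate check, no test was made, and intervals cover counting error only.

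Droplets without a cell still capture RNA that floats in the suspension, released by cells that broke before or during loading. Such RNA need not mirror the cell: cytosolic messages leave through a torn plasma membrane, messages on the endoplasmic reticulum (ER) are held by ribosomes that are docked on the membrane, and some long RNAs stay in the nucleus. Barcodes of intermediate counts can also hold cell fragments, mitochondria or a damaged cell.

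The window held different kinds of barcodes in the 3 libraries. In control, 87.5% of low-count barcodes had at most 200 UMIs, and the most frequent UMI total among barcodes of 10 to 300 UMIs was 103. In the bulk and localized libraries that most frequent total was 37 and 21, below the window, and 51.0% and 47.6% of low-count barcodes had at most 200 UMIs. The median low-count barcode held 121 UMIs (control), 196 (bulk) and 211 (localized electroporation). The low-count UMIs of control, bulk and localized electroporation summed to 7623554, 2398741 and 2711564, which was 10.2%, 2.80% and 3.24% of each library. Cells summed to 56850387, 74609429 and 73744278 UMIs. At the lower limit the control held 20953 barcodes in the 20 UMI values just below it and 23589 in the 20 just above, while bulk held 2528 and 1400 and localized electroporation 1992 and 1314. At the upper limit the control held 37 barcodes in the 100 UMI values just inside and 38 in the 100 just outside. No barcode of at least 6000 UMIs failed the limits on genes or mt- share.

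Libraries shared some barcodes. Of the 8387 low-count barcodes in localized electroporation 297 (3.54%) had the sequence of a bulk cell barcode and 30 that of a control cell. In the reverse direction 31 low-count bulk barcodes were localized cells and 23 were control cells. In control 175 low-count barcodes were bulk cells and 120 were localized cells. Results that rest on such barcodes are given with and without them, and how the barcodes came to be shared was not tested.

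**Figure D1:**
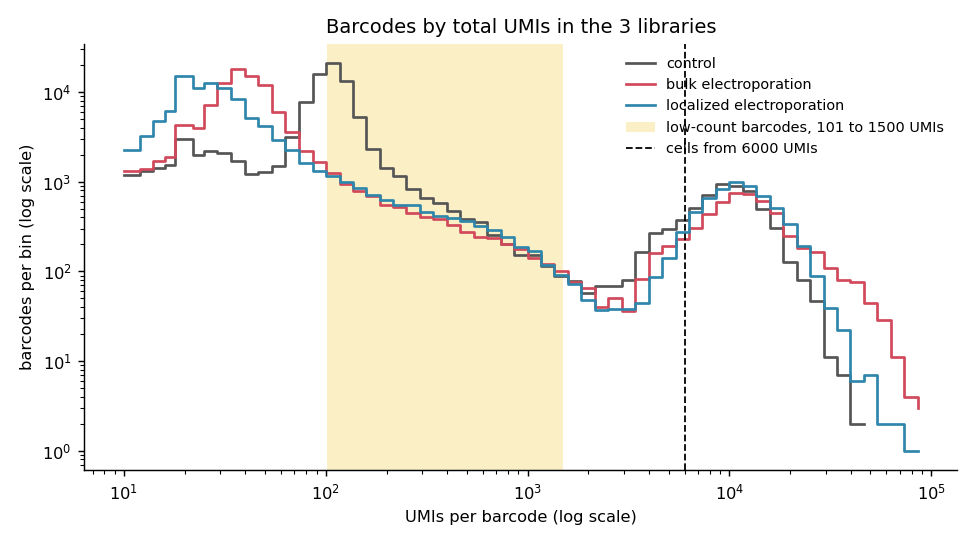
Number of barcodes (log scale) against UMIs per barcode (log scale) in each library, with the low-count window shaded and the start of the cell range dashed. The control's main peak of barcodes without a cell lies at 103 UMIs, inside the window, and those of bulk and localized electroporation lie below it, at 37 and 21.

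Genes tied to ribosomal RNA, and Lars2 with them, had the largest ratios of low-count barcodes over cells among genes higher in all 3 libraries. Ribosomal RNA is the structural RNA of ribosomes, and lacks the poly(A) tail by which 3' libraries capture messages. Gm42418 and AY036118 overlap ribosomal RNA sequence in the mouse genome and usually serve as its proxy in 3' libraries. By GENCODE vM21 on GRCm38, Gm42418 is a single-exon lincRNA on the plus strand of chromosome 17, from 39846958 to 39848788, and AY036118 lies inside it on the minus strand, from 39847113 to 39848035. Whether counting used strand is not given in the sources used here, so the split of reads between those 2 is uncertain. Gm26917, also a single-exon lincRNA, starts at 39843013 and ends at 39846341 on the same chromosome. Whether priming took place inside Gm42418 was not tested, and other transcripts were not searched for runs of As. The Gm42418 transcript of 1831 bases holds 1 run of 6 or more As, a stretch with which an oligo-dT primer can pair. It is shown because this locus carries most of the difference, here in capitals with 57 bases on each side (chr17:39847110-39847229, plus strand, GRCm38, from GENCODE vM21):
Gm42418: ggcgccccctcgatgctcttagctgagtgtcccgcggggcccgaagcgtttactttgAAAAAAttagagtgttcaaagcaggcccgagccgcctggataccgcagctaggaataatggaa

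Levels are given as CPM, the UMIs of a gene scaled to a common total for each summed set of barcodes. Gm42418 had 220965 CPM in low-count barcodes and 5818 CPM in cells of control. It had 64942 against 4643 CPM in bulk and 28020 against 5428 CPM in localized electroporation. The level in cells was similar in the 3 libraries, and the level outside cells was not, so the log2 ratio of low-count barcodes over cells was 5.25, 3.81 and 2.37. AY036118 had 2246, 1878 and 2357 CPM outside cells and 112, 93.0 and 211 CPM inside, with log2 ratios of 4.31, 4.32 and 3.47. Its level outside cells differed far less between libraries than that of Gm42418. Gm26917 had 321, 1315 and 384 CPM outside cells against 59.0, 66.2 and 75.6 CPM inside, log2 ratios of 2.42, 4.29 and 2.33, with bulk electroporation highest. Together the 3 loci made up 22.4% of low-count UMIs in control (95% exact Clopper-Pearson interval 22.3 to 22.4%), 6.81% in bulk (6.78 to 6.85%) and 3.08% in localized electroporation (3.06 to 3.10%), against 0.599%, 0.480% and 0.571% in cells.

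Lars2, which encodes the mitochondrial leucyl-tRNA synthetase (chromosome 9, 123366927 to 123462666, plus strand), moved with them. It had 7076 CPM in low-count barcodes and 211 CPM in cells of control, 2483 and 126 CPM in bulk, and 1438 and 220 CPM in localized electroporation. Its log2 ratios were 5.06, 4.28 and 2.70. The other mitochondrial proteins encoded in the nucleus did not share this: of 78 mitochondrial ribosomal proteins, the summed log2 ratio was -0.65, 0.06 and 0.17.

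The share of the ribosomal RNA loci went down in steps as barcodes held more UMIs. In control it was 27.8% in barcodes of up to 200 UMIs, 14.7% above 200 and up to 500, 7.54% up to 1000, 6.09% up to 1500, 1.82% above 1500 but below 6000, and 0.599% in cells. In bulk it went from 11.6% to 6.70%, 4.83%, 4.03%, 1.90% and 0.480% over the same windows. In localized electroporation it went from 4.60% to 3.23%, 2.47%, 1.96%, 1.34% and 0.571%. Below the window, at 10 to 100 UMIs, the shares were 23.8%, 20.4% and 10.6%. At every step between 100 and 1500 UMIs the order control, bulk, localized electroporation was kept. Above 1500 but below 6000 UMIs it was not kept, with bulk (1.90%) above control (1.82%). Equal UMI totals need not mean like barcodes, since only the control has its main peak of barcodes inside the window. Without replicates treatment and library cannot be told apart.

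**Figure D2:**
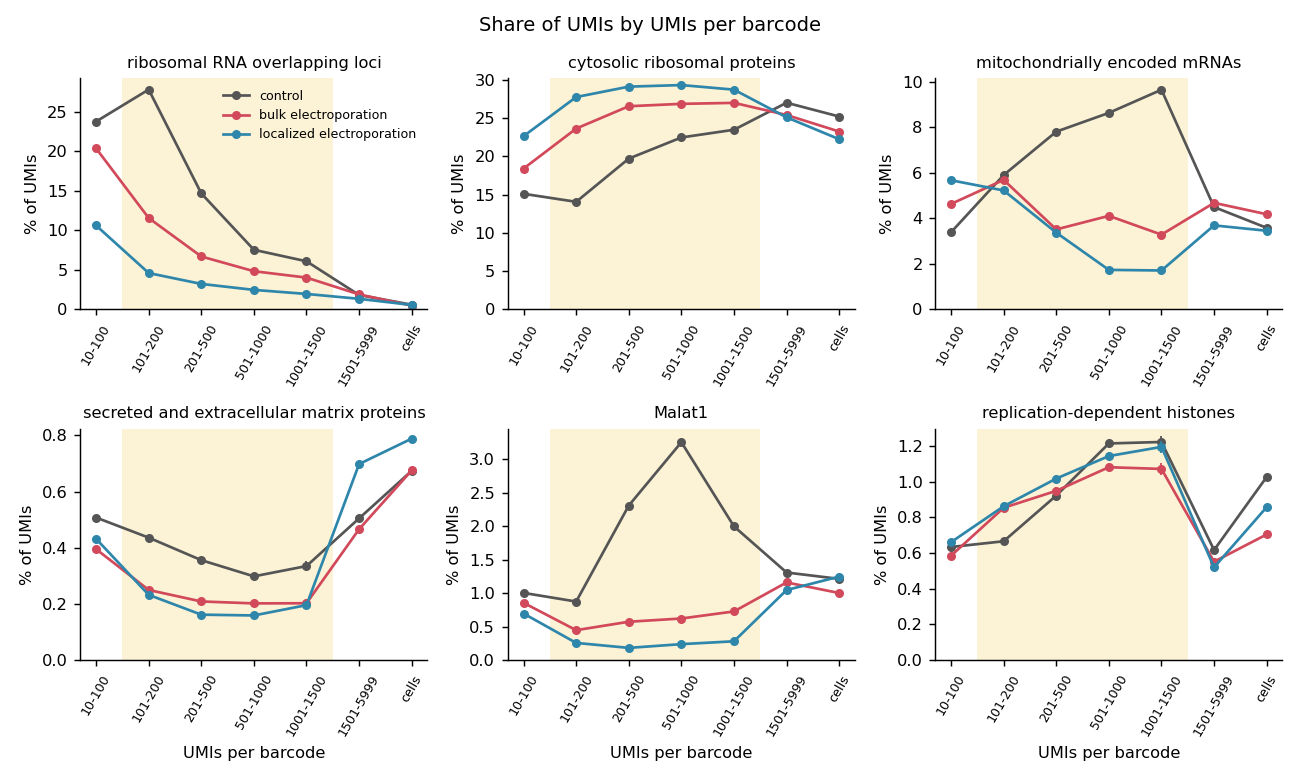
Share of UMIs (percent, vertical axis) of 5 RNA classes and of Malat1 in barcodes of rising UMI count (horizontal axis) in each library, with the low-count windows shaded and 95% exact intervals drawn as bars. Ribosomal RNA loci go down with UMIs within and above the window in all 3 libraries. Secreted proteins dip inside the window in all 3 libraries and Malat1 in both electroporated ones. In control Malat1 peaks at 3.25% above 500 and up to 1000 UMIs.

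Genes were compared where their mean over the 6 sums (3 libraries, cells and low-count barcodes) was at least 10 CPM, which 7421 genes reached. Ratios are log2 of CPM plus 1 and understate the change of low genes. A gene was counted as past the fold at 1.5-fold. In control 189 genes (2.55%) were higher and 1685 (22.7%) lower in low-count barcodes. In bulk 45 (0.606%) were higher and 2714 (36.6%) lower, and in localized electroporation 38 (0.512%) were higher and 3291 (44.3%) lower. In all 3 libraries together 11 genes (0.148%) were higher and 364 (4.9%) lower. In both electroporated libraries 19 (0.256%) were higher and 2414 (32.5%) lower. The median log2 ratio of all genes was -0.28, -0.38 and -0.47.

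These splits depend on what the shares are taken of. With Gm42418, AY036118, Gm26917 and Lars2 left out of the totals, the medians were 0.08, -0.29 and -0.43, and 80.2% of control genes past the fold were higher, against 10.1% with them. In bulk that share was 2.80% against 1.63%, and in localized electroporation 1.80% against 1.14%. That scaling added 0.37, 0.10 and 0.04 to every log2 ratio of control, bulk and localized electroporation. Median-of-ratios scaling added 0.19, 0.44 and 0.62, and TMM scaling 0.15, 0.35 and 0.46. In all, 30 of 105 class or family values changed sign under one of the scalings tried, and those named with a direction below are marked where they did.

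The 11 genes higher in all 3 libraries were the 4 just described and 7 replication-dependent histones: Hist1h1d, Hist1h1e, Hist1h2bj, Hist1h2bm, Hist1h3b, Hist1h4d and Hist1h4h. These histones package newly made DNA in S phase, and most of their messages end in a stem-loop rather than a poly(A) tail. The stem-loop letters are shown because they mark the 3' end that most of these transcripts share (GENCODE vM21, GRCm38, chromosome 13, stem-loop in capitals):
Hist1h3b: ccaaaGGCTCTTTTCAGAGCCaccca
Hist1h4h: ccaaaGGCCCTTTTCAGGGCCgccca
Hist1h2bj: ccaaaGGCTCTTTTCAGAGCCacgca
Hist1h2bm: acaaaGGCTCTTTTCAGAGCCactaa
Hist1h2ap: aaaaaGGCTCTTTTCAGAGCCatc

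The motif searched was GG, any 2 bases, CTTTT, any base, AG, any 2 bases, CC, on the transcript strand. It was found in 26 of the 35 histone genes that were compared and in 89 of 55450 annotated genes (0.161%). A match is a description of letters only.

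Hist1h1e, a linker histone, had 856 CPM in low-count barcodes and 430 CPM in cells of control, 1146 and 426 in bulk, and 830 and 483 in localized electroporation, so log2 ratios of 0.99, 1.43 and 0.78. Hist1h1d had 255 against 95.8 CPM in control, 232 against 63.0 in bulk and 148 against 94.3 in localized electroporation, ratios of 1.41, 1.86 and 0.64. Hist1h4d had 225 against 120, 397 against 107 and 170 against 81.4 CPM, ratios of 0.90, 1.89 and 1.05. In each of these 3 genes bulk electroporation gave the largest ratio. The remaining ratios ran from 0.61 in Hist1h2bm to 1.16 in Hist1h2bj in control, from 1.25 to 1.82 in bulk and from 0.62 to 1.15 in localized electroporation. Of the 35 histones compared (of 67 in the files), 9, 27 and 13 were higher past the fold in control, bulk and localized electroporation, against 2.55%, 0.606% and 0.512% of all genes. Of the same 35, 2 were lower in control and none in the other libraries. Their median ratio was 0.19, 1.11 and 0.49.

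The most abundant histone did not share this. Hist1h2ap, which carries the same 16 stem-loop letters as Hist1h3b, had 3758 CPM outside and 6636 CPM inside cells of control, 4177 and 4302 in bulk, and 6075 and 5561 in localized electroporation. Its ratios were -0.82, -0.04 and 0.13. Hist1h2ae gave -0.74, 0.51 and 0.28. Those 2 dominate the sum. The summed histone ratio was -0.37 in control and 0.49 and 0.30 in the electroporated libraries, against a median above 0 in all libraries, and the control sum becomes 0.00 when the ribosomal RNA loci and Lars2 are left out of the totals. Without Hist1h2ap and Hist1h2ae the sum gave 0.49, 1.15 and 0.62. Histone genes are near-identical copies, so reads may be split or dropped between them and single members are uncertain. With cells of at least 10000 UMIs, 3 of the 7 histones stayed past the fold in all libraries, with a window that ends at 500 UMIs 3 did, with equal weight for every barcode 2, and at 10 to 100 UMIs 0.

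The genes most depleted outside cells in all 3 libraries together encoded secreted, ER or membrane proteins. In control alone, membrane families were not the most depleted: solute carriers other than Slc25 summed to -0.25 and cytosolic ribosomal proteins to -0.62. The 12 lowest genes that passed the fold in all 3 libraries, by the ratio of smallest size among the 3, were Igfbp2, Cst3, Apoe, Atraid, Ssr2, Tecr, Manf, Ppib, Bsg, Hbegf, Bcap31 and Selenos, and each encodes a protein that is secreted, ER-resident or spans a membrane. Igfbp2, a secreted carrier of insulin-like growth factors, had 565 CPM in low-count barcodes and 1625 in cells of control, 430 and 1617 in bulk, and 233 and 998 in localized electroporation. Its ratios were -1.52, -1.91 and -2.09. Cst3, the secreted protease inhibitor cystatin C, had 209 against 555, 222 against 686 and 349 against 1349 CPM, ratios of -1.40, -1.62 and -1.95. Apoe, the lipid carrier, had 51.3 against 138, 65.0 against 174 and 124 against 479 CPM, ratios of -1.41, -1.41 and -1.94. In all 3 genes low-count barcodes lay under cells in every library, and localized electroporation had the lowest ratio. The other 9 ran from -1.51 to -1.19 in control, from -1.71 to -1.29 in bulk and from -2.18 to -1.60 in localized electroporation. All 12 stayed past the fold in all libraries at every alternative but the window of 10 to 100 UMIs, where 10 did.

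The first codons follow for 3 secretory messages that were depleted in all 3 libraries and for 1 message that was depleted in control only. They are shown because they hold the stretch that is scored for all genes below (GENCODE vM21, GRCm38, coding strand, from the start codon). Capitals mark the codons of the most hydrophobic 19 residues that start within the first 40:
Igfbp2: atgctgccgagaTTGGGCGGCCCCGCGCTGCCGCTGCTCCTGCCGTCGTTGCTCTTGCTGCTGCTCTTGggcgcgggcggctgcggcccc
Cst3: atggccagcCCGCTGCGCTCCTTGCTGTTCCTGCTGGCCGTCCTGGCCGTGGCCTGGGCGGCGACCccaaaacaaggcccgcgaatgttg
Calr: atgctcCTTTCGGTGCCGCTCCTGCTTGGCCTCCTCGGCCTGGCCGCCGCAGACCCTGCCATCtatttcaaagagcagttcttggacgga
Slc25a5: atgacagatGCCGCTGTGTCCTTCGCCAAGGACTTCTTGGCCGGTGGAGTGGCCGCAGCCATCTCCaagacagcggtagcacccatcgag

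On the Kyte-Doolittle scale, where higher means more hydrophobic, those stretches average 2.16 in Igfbp2, 1.82 in Cst3, 1.8 in Calr and 1.32 in Slc25a5. Calr, an ER chaperone chosen after its values were seen, gave -1.11, -1.74 and -2.04. Slc25a5, the mitochondrial ADP/ATP carrier, also chosen after its values were seen, spans a membrane too but is made on free ribosomes. Its most hydrophobic stretch in the whole protein averages 1.43, under the cut of 1.6 used below. It is thus not matched in this property to Igfbp2, Cst3 and Calr, and the part of the site of translation was not tested. Slc25a5 had 651 CPM outside and 1280 CPM inside cells of control, 1141 and 1100 in bulk, and 1436 and 1260 in localized electroporation. Its ratios were -0.97, 0.05 and 0.19.

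Across all genes the same property sorted the ratios in the electroporated libraries, and little in control. A hydrophobic stretch was counted where 19 residues in a row averaged at least 1.6, a cut chosen after the ratios were seen. Of 7245 translated genes 1972 (27.2%) had one, and of the 355 genes with a translated protein that were lower in all 3 libraries 273 (76.9%) did. In bulk the median log2 ratio was -0.27 in 5273 genes without a stretch, -1.05 in 330 genes with 1 stretch that started in the first 40 residues, -0.55 in 790 with 1 later stretch and -1.10 in 852 with 2 or more. In localized electroporation it was -0.31, -1.38, -0.68 and -1.44. In control the spread was small: -0.29, -0.45, -0.16 and -0.22. Genes are not independent replicates, so these medians carry no test.

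Membrane families differed among themselves. The 50 solute carriers other than Slc25, transporters of the plasma membrane and organelles, had summed ratios of -0.25, -1.32 and -1.66, with 44 of 50 lower past the fold in both electroporated libraries, against 32.5% of all genes. The 21 Slc25 carriers of the inner mitochondrial membrane had -0.71, -0.06 and 0.03, with 1 of 21 lower in both, although 12 of the 21 have a hydrophobic stretch by the same cut. In control the solute carriers thus lay above the Slc25 carriers, and in the electroporated libraries below them. The control value of the first family was 0.12 and the bulk value of the second 0.04 when the ribosomal RNA loci and Lars2 were left out of the totals. The bulk value of the Slc25 carriers was also above 0, at 0.38 and 0.29, with median-of-ratios and TMM scaling. Of 8 Tmed cargo receptors, which sort proteins between ER and Golgi, 8 were lower in both electroporated libraries (32.5% of all genes) and 4 in all 3 (4.9%), with summed ratios of -0.67, -1.40 and -1.77. The 13 CD surface antigens gave -0.89, -1.39 and -1.76. The 5 integrins gave -0.11, -1.66 and -2.15, with a control value above 0 under TMM scaling (0.04), median-of-ratios scaling (0.08) and totals without the ribosomal RNA loci and Lars2 (0.26). Of the 16 genes of the signal sequence receptor and the Sec61 translocon, the channel into the ER, 14 were lower in both electroporated libraries and 6 in all 3. Their summed ratios were nonetheless alike in the libraries, at -0.64, -0.54 and -0.57, and the localized sum became 0.06 with median-of-ratios scaling. The median ratios of the 16 genes were not alike, at -0.51, -1.15 and -1.71.

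Among 23 secreted and extracellular matrix genes all 23 were lower past the fold in both electroporated libraries (32.5% of all genes) and 6 in all 3 (4.9%). Their summed share was 0.403% outside and 0.674% inside cells of control, 0.215% and 0.675% in bulk, and 0.181% and 0.788% in localized electroporation. The class was thus 1.67-fold, 3.14-fold and 4.37-fold lower outside cells. Sparc, a matrix glycoprotein, had 58.4 against 132 CPM in control, 42.1 against 177 in bulk and 18.4 against 89.5 in localized electroporation. Ptprz1, a receptor phosphatase of progenitor cells, had 602 against 846, 176 against 706 and 132 against 967 CPM, so that its ratio ran from -0.49 in control to -2.86 in localized electroporation. Of 19 cholesterol synthesis genes, whose enzymes sit largely on the ER, 13 were lower in both electroporated libraries, against 32.5% of all genes, and none in all 3. Cyp51, a demethylase of this pathway, gave -0.42, -1.53 and -2.57.

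Transcript length sorted the ratios in opposite order in control and in the electroporated libraries. In control the median ratio went up from -0.64 in the shortest of 5 equal groups of protein-coding genes (341 to 1532 bases) to 0.08 in the longest (at least 5013 bases). In bulk it went down from 0.01 to -0.75, and in localized electroporation from 0.11 to -1.09. Spearman's rho between length and ratio over 7311 genes was 0.61 for control, -0.52 for bulk and -0.59 for localized electroporation. These genes share a library and its depth, and the rho is given as a description. Hydrophobic stretch and length sorted the ratios together: within the shortest group of localized electroporation the median was 0.15 without and -0.34 with a stretch, and within the longest -0.95 and -1.41. GC content sorted little, with a rho of -0.17, 0.03 and 0.12.

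**Figure D3:**
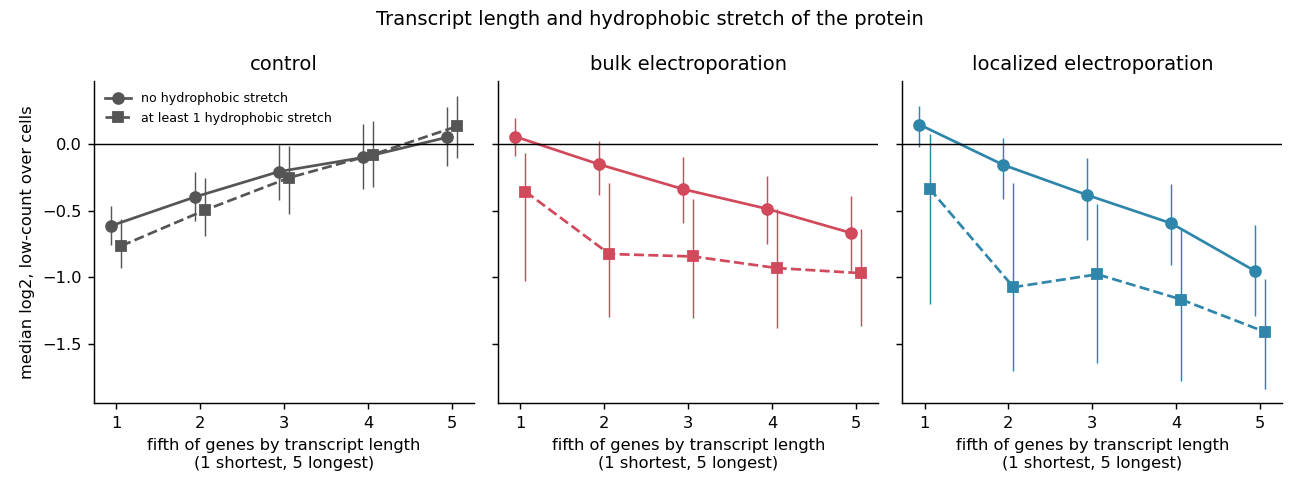
Median log2 ratio of low-count barcodes over cells (vertical axis, bars from the 25th to the 75th percentile of genes) by transcript length in 5 equal groups (horizontal axis), for genes whose protein has no hydrophobic stretch (circles) or at least 1 (squares). In control the medians go up with length and the 2 sets nearly coincide, and in both electroporated libraries they go down and genes with a stretch lie lower in every group.

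The strength of this relation in control moved with the UMI window, and it was above 0 in each. In control rho was 0.65 up to 200 UMIs, 0.34 above 200 and up to 500, 0.11 up to 1000 and 0.04 up to 1500. In bulk it was -0.36, -0.45, -0.49 and -0.42, and in localized electroporation -0.48, -0.56, -0.55 and -0.50. At 10 to 100 UMIs, where the bulk library has its main peak, the bulk value was 0.12 and the localized value -0.37. Control and the electroporated libraries thus differed most at up to 200 UMIs, where only the control has its main peak of barcodes. Within the low-count window the gap between genes with and without a stretch went down in all 3 libraries instead, and the libraries stayed apart. It was 0.12, -0.41 and -0.64 up to 200 UMIs and -0.17, -0.66 and -0.93 above 500 and up to 1000 in control, bulk and localized electroporation. At 10 to 100 UMIs, outside the window, the gap was 0.13, -0.05 and -0.19. Both the gap in the electroporated libraries and the contrast with control were thus smaller there.

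Malat1, the most abundant nuclear RNA listed, was somewhat higher outside than inside cells of control and far lower outside cells in localized electroporation. Malat1 is a long RNA held in nuclear speckles (chromosome 19, 5795690 to 5802672, minus strand). It had 14220 CPM in low-count barcodes and 12120 CPM in cells of control. It had 5834 against 10011 CPM in bulk and 2301 against 12463 CPM in localized electroporation. Cells held it at a similar level in the 3 libraries, and the ratios outside cells were 0.23, -0.78 and -2.44. The control value averages unlike windows, with 0.874% of UMIs up to 200 UMIs, 3.25% above 500 and up to 1000, and 1.21% in cells. Few barcodes held a high share of it. Above 500 and up to 1500 UMIs the median control barcode had 0.186% and the 95th percentile was 21.5%. Of these 1455 control barcodes 390 held no Malat1 and 83 held over 20%. Kcnq1ot1, a long antisense RNA that silences imprinted genes, gave -0.39, -1.36 and -2.97, from 99.6, 52.5 and 16.6 CPM outside cells. Tug1 gave 0.70, -0.56 and -1.48. Gas5, Pvt1 and Oip5os1 went otherwise. Gas5, a spliced host of small nucleolar RNAs, gave -0.54, 0.23 and 0.22, Pvt1 -0.35, 0.01 and 0.03, and Oip5os1 -0.09, -0.17 and -0.26. Summed, the 6 RNAs that were compared, of 17 in the files, gave 0.18, -0.68 and -2.07, and their median was -0.22, -0.36 and -0.87.

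Messages for chromatin and other large nuclear proteins followed the long RNAs. Their proteins act in the nucleus, but these messages are themselves long. In the longest of the 5 length groups 3.83%, 66.2% and 81.9% of genes were lower past the fold in control, bulk and localized electroporation. Of 20 chromatin and large nuclear genes 19 were lower in both electroporated libraries (32.5% of all genes) and none in control (22.7%). Class and length were not told apart for these 20. The sum gave 0.05, -1.18 and -1.63, beside medians of all genes of -0.28, -0.38 and -0.47. Chd4, a chromatin remodeller, had 214 CPM outside and 207 CPM inside cells of control, 103 and 280 in bulk, and 69.3 and 301 in localized electroporation. Mki67, the proliferation marker that coats mitotic chromosomes, gave 0.30, -1.83 and -2.32. The 22 kinesins, motors of microtubules, gave 0.07, -0.64 and -0.89.

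Short cytosolic messages lay in the opposite order of libraries. Of 82 cytosolic ribosomal protein genes 47 were lower past the fold in control. There 22.7% of all genes and 59.5% of the shortest length group were lower. In bulk and localized electroporation 36.6% and 44.3% of all genes were lower, and 9.84% and 10.9% of that group. Of the 82 genes 0 were lower in either, and 0 and 4 were higher. They made up 16.4% of low-count UMIs against 25.2% in control cells, 26.0% against 23.2% in bulk and 28.8% against 22.2% in localized electroporation. The summed ratios were -0.62, 0.16 and 0.37. Rps26, a small-subunit protein, had 2778 against 4061 CPM, 4851 against 3245 and 5770 against 3580, ratios of -0.55, 0.58 and 0.69. Nuclear-encoded respiratory chain genes (77) gave -0.67, 0.03 and 0.13, proteasome subunits (35) -0.60, 0.06 and 0.08, and translation initiation factors (42) -0.43, 0.00 and 0.02. The metallothioneins Mt1 and Mt2, small metal-binding proteins picked after their values were seen, lay above cells in the electroporated libraries and below them in control, close to 1.5-fold at most. Mt1 had 2022 against 2757, 3543 against 2340 and 5121 against 3417 CPM, ratios of -0.45, 0.60 and 0.58, and Mt2 ratios of -0.23, 0.61 and 0.55.

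**Figure D4:**
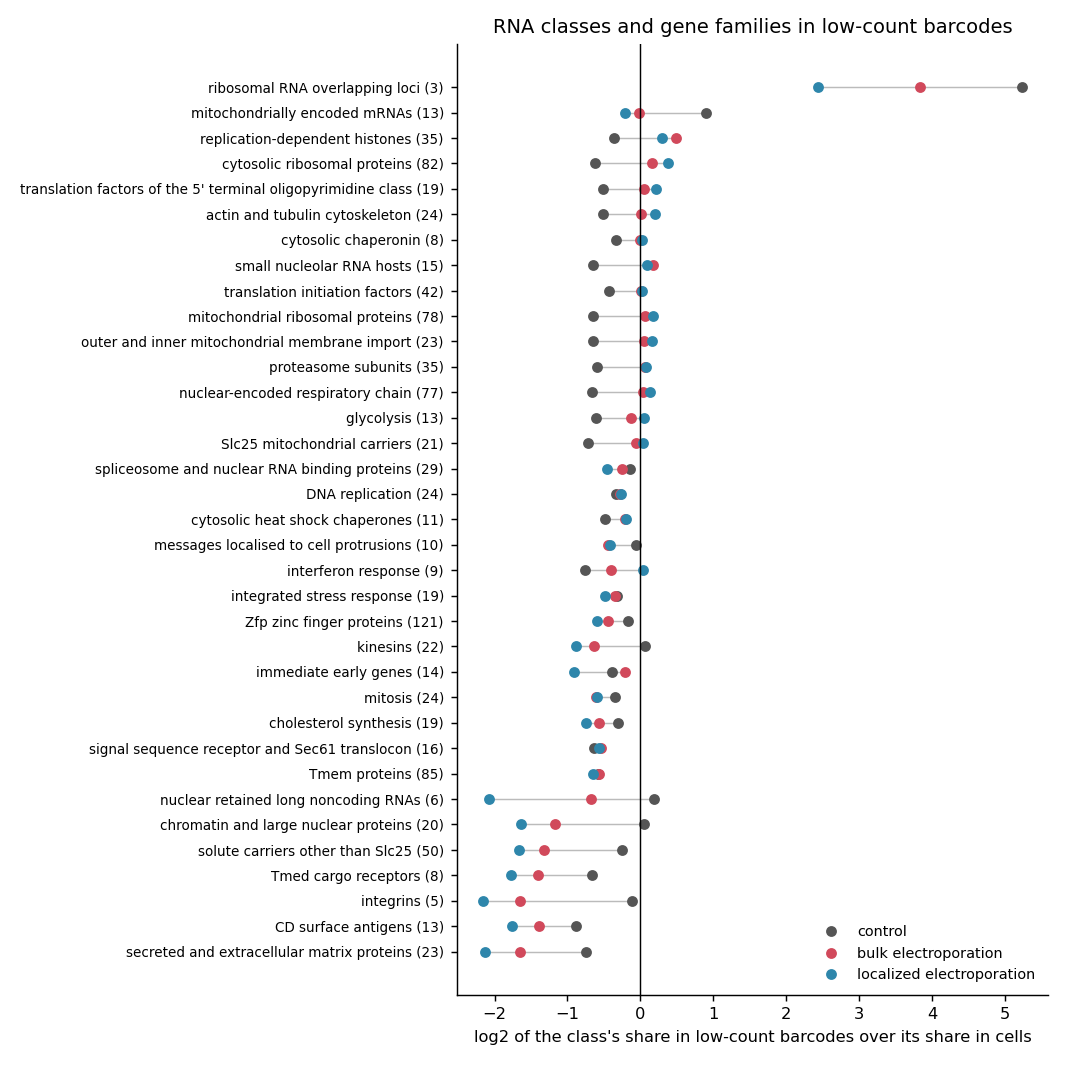
Log2 of each class's share of UMIs in low-count barcodes over its share in cells (horizontal axis) for 22 RNA classes and 13 gene families (members compared in brackets) in the 3 libraries. Ribosomal RNA loci lie far right in all libraries, short cytosolic classes lie left of 0 in control and near or right of it after electroporation, and secreted proteins, Tmed receptors and CD antigens lie left in all libraries, farthest in localized electroporation.

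The mt- messages are made inside mitochondria and travel with them. The rule limits them in cells and not in low-count barcodes, although no barcode of at least 6000 UMIs failed that limit. Their ratio is a description only. They held 6.70% of low-count UMIs and 3.58% of cell UMIs in control, 4.14% and 4.18% in bulk, and 2.99% and 3.46% in localized electroporation. The summed ratio was 0.90, -0.01 and -0.21. The bulk value became 0.08 with totals without the ribosomal RNA loci and Lars2, 0.43 with median-of-ratios and 0.33 with TMM scaling, and the localized value 0.41 and 0.25 with the latter 2. With the limit of 20% applied to low-count barcodes too, the mean over libraries went from 0.23 to -1.12. In control 12 of 13 mt- genes were higher past the fold, among them mt-Co3, a cytochrome c oxidase subunit, with 10246 against 5016 CPM.

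Single barcodes were uneven in mt- share. Among barcodes above 500 and up to 1500 UMIs, 654 of 1455 in control, 1007 of 1317 in bulk and 1296 of 1565 in localized electroporation had under 1% mt- UMIs, whereas 0.75%, 0.87% and 0.57% of cells did. At the other end 230, 73 and 38 barcodes had over 20%. These sets were parted after the data were seen, by their mt- share only, and shares below are of non-mt- UMIs. Malat1 made up 1.43%, 0.239% and 0.110% in the mt-poor barcodes and 7.75%, 6.92% and 5.84% in the mt-rich ones, against 1.26%, 1.04% and 1.29% in cells. Secreted and matrix genes made up 0.202%, 0.138% and 0.104% in the mt-poor and 0.852%, 1.27% and 1.699% in the mt-rich barcodes, against 0.699%, 0.705% and 0.817% in cells. Cytosolic ribosomal proteins made up 29.3%, 29.2% and 30.1% in the mt-poor and 9.77%, 11.2% and 14.7% in the mt-rich barcodes. Mt-rich barcodes thus lay above cells in Malat1 and secreted genes in all 3 libraries, and below them in ribosomal proteins. The ribosomal RNA loci were above cells in both sets, with 5.75%, 3.99% and 2.17% in the mt-poor and 17.8%, 15.6% and 7.53% in the mt-rich barcodes. The ratios of the summed window therefore average over unlike barcodes in unlike numbers.

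The 8 genes of at least 50 CPM with the widest range over the libraries were Gria2, Gm42418, Cdh2, Grm5, Jmjd1c, Mmp15, Malat1 and App. Gria2, a subunit of AMPA-type glutamate receptors, had 160 CPM outside and 84.1 CPM inside cells of control, 29.6 and 66.7 in bulk, and 14.8 and 76.4 in localized electroporation. Its ratios were 0.92, -1.14 and -2.30, and cells differed little. Mmp15, a membrane-bound matrix protease, gave 0.64, -1.21 and -2.05. App, the amyloid precursor protein, gave -0.12, -1.89 and -2.78, Grm5, a metabotropic glutamate receptor, -0.01, -1.81 and -2.71, and Cdh2, an adhesion protein, 0.08, -1.82 and -2.69. Jmjd1c, a histone demethylase family member, gave 0.44, -0.78 and -2.26. In these 6 genes control was highest and localized electroporation lowest. Their localized sums rest on 27 to 40 UMIs outside cells. By UMI window the Gria2 ratio was 0.69, -1.24 and -1.77 up to 200 UMIs and 1.59, -1.33 and -2.88 above 500 and up to 1000. Outside the low-count window the contrast was not kept. The Gria2 ratio was 0.59, 0.15 and -0.38 at 10 to 100 UMIs. Above 1500 but below 6000 UMIs it was 1.35, 1.45 and 0.75.

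**Figure D5:**
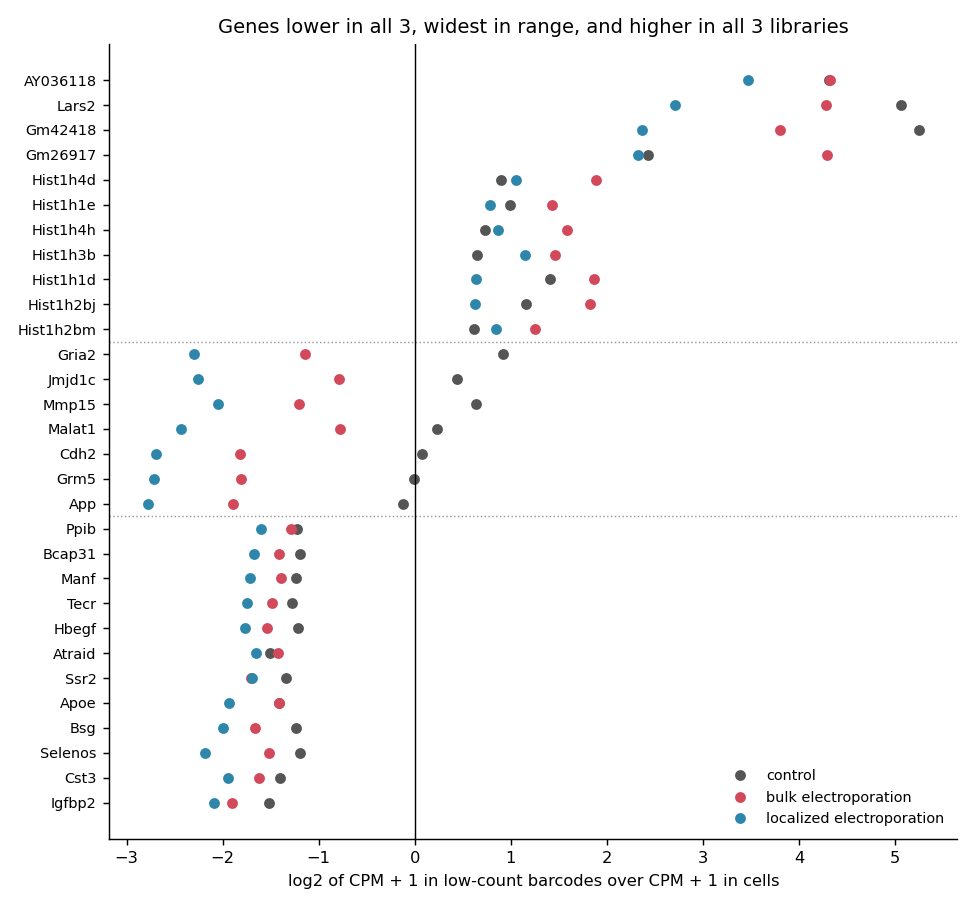
Log2 of CPM plus 1 in low-count barcodes over cells (horizontal axis) in the 3 libraries for the 12 lowest genes, the genes of widest range and the 11 genes higher in all libraries, from bottom to top. The 3 dots of the lowest genes all lie under -1, those of the top genes all above 0.6, and the middle genes run from near or above 0 in control to -2 and below in localized electroporation.

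Interferon-response genes in localized electroporation were the one list whose values rest on shared barcodes. Isg15, an interferon-induced ubiquitin-like protein, had 20 UMIs or 7.38 CPM in the localized low-count barcodes and 1.87 CPM in cells, and 15 of the 20 UMIs lay in the 297 shared barcodes. Cxcl10, an interferon-induced chemokine, had 39 UMIs, 32 of them in the shared barcodes, and its level of 14.4 CPM became 2.62 CPM without them, against 5.55 CPM in cells. The 297 barcodes held 2344 CPM of the interferon list, and the low-count barcodes held 113 CPM with and 78.6 CPM without them, against 110 CPM in cells. The median ratio of the 9 listed genes, 1.23 with all barcodes, was -0.20 without low-count barcodes that were cells in another library. Both medians rest on few UMIs and on the added 1 CPM. Ifit1 had 0.28 CPM in localized cells, and 2 UMIs in low-count barcodes that were not bulk cells. The filter took the mean of all 6 sums, and bulk carried much of it. The list made up 0.143% of UMIs in bulk cells and 0.0110% in localized cells. Bulk cells held 591 CPM of Cxcl10 and 208 CPM of Isg15.

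Markers of the labelled cell type were present in low-count barcodes. All 12 neural stem or progenitor markers were compared and had a median ratio of -0.29, -0.64 and -0.52, while their summed ratio was -0.50, 0.07 and 0.21. Slc1a3, a glutamate transporter of progenitors, had 245 against 386 CPM in control, 93.8 against 411 in bulk and 60.1 against 372 in localized electroporation, and Egfr, the receptor of the growth factor in the medium, gave 0.46, -1.39 and -2.19. Lists of microglia, endothelial, erythroid and ependymal or choroid plexus markers had 0 members at 10 CPM, and of 9 mural or fibroblast markers only Acta2 passed, with -1.18, -0.40 and -0.01. Of 7 oligodendrocyte precursor markers 5 were lower in both electroporated libraries, as were 1 of 2 oligodendrocyte, 3 of 5 astrocyte and 3 of 5 neuron markers, against 32.5% of all genes.

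The remaining lists are given by their values. Summed ratios were -0.33, -0.28 and -0.27 for 24 DNA replication genes and -0.35, -0.61 and -0.59 for 24 mitosis genes. Integrated stress response genes gave -0.32, -0.35 and -0.49, and immediate early genes -0.39, -0.21 and -0.92. Cytosolic heat shock chaperones gave -0.48, -0.21 and -0.19, spliceosome and nuclear RNA binding proteins -0.15, -0.25 and -0.46, and glycolysis genes -0.61, -0.12 and 0.05. Those of the cytoskeleton gave -0.51, 0.01 and 0.19, translation factors of the 5' terminal oligopyrimidine class -0.51, 0.05 and 0.21, small nucleolar RNA hosts -0.65, 0.17 and 0.09, and messages localised to protrusions -0.06, -0.45 and -0.42. Under a scaling alternative at least 1 library changed sign in all of these lists but the cytoskeleton, translation factor and small nucleolar RNA host lists, so no direction is given for them. Sum and median differed in sign in localized electroporation for the small nucleolar RNA hosts (median -0.09), the Slc25 carriers (-0.22) and the translation initiation factors (-0.08). In bulk they did for mt- messages (0.10), the cytoskeleton (-0.05) and the translation initiation factors (-0.05), and in control for the integrins (0.08) and kinesins (-0.01).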

How the data were processed

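The authors deposited UMI counts per gene and barcode from droplet sequencing of transcript 3' ends, for 32285 genes and all barcodes, empty ones included. The submitters' processing notes name Cell Ranger 6, Seurat 4.0.4 and GRCm38, while Cell Ranger 4 is named per the file headers. The annotation release and the use of strand are not given in the sources used here.

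UMIs were summed over low-count barcodes and over cells of each library and divided by the sum (CPM). Each ratio is on the log2 scale after adding 1 to both levels, and genes needed a mean of 10 CPM. Intervals are exact, at 95%. No doublet caller was run. The members, gene lists and families were chosen with earlier results of these data known, and 13 families, the hydrophobicity cut of 1.6 and the parting by mt- share were added after values were seen. The named genes were up to 12 highest (7 qualified) and the 12 lowest by the ratio of smallest size among 3 at a mean of at least 50 CPM, without mt-, ribosomal protein, Gm and Rik genes, up to 4 per list, and the 8 of widest range. Calr, Rpn1, Hist1h2ap, Hist1h2ae, Hist1h2bm, Kpnb1, Mt1, Mt2, Slc25a3, Slc25a4 and Slc25a5 were picked after their values were seen. Transcripts came from GENCODE vM21, matched by identifier for 7418 of 7421 genes, taking the longest coding sequence. Scaling alternatives used edgeR 4.0.16 for TMM. Python 3.11.15 with numpy 2.4.6, scipy 1.17.1 and pandas 2.3.3 was used. One named gene is not reported here.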

Additional observations from a re-analysis of the deposited data

Results flagged for a closer look

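Some genes of at least 50 CPM (17 of 2534) passed the fold one way in one library and the other way in another. These differences were not tested, since each treatment had 1 library. Of the 17 genes 15 were higher in control and 10 of those were lower in both electroporated libraries. Given as the highest minus the lowest of the log2 ratios of low-count barcodes over cells, control exceeded localized electroporation by 3.22 in Gria2, 2.69 in Mmp15, 2.54 in Tnc, 2.40 in Usp9x, 2.32 in Dst, 2.16 in Myh10 and 2.03 in Fbn2. It did so by 1.66 in Trip12, 1.58 in Pou3f3, 1.57 in Tnpo1, 1.36 in Paxbp1 and 1.28 in Vars. Control exceeded bulk electroporation by 1.89 in Myo5a, 1.83 in Ddx3x and 1.68 in Kpnb1. Localized electroporation exceeded control by 1.48 in Mrpl42, a short message for a mitochondrial ribosomal protein, and bulk by 1.85 in Cxcl10, whose UMIs lay mostly in barcodes shared with bulk cells. Spearman's rho of transcript length against the ratio differed by 1.20 between control and localized electroporation. That gap was smaller above 500 and up to 1000 UMIs, where the values were 0.11 and -0.55.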

How the results depend on the processing

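No paired analysis was possible because each treatment had 1 library. The main counts were 11 genes higher and 364 lower in all 3 libraries. A window above 500 and up to 1500 UMIs gave 21 and 805, and sharing was complete for the 11 higher genes and covered 281 of the 364 lower. A window of 10 to 100 UMIs gave 30 and 153, and one above 200 and up to 1500 UMIs, chosen after seeing the data, 17 and 631. Median-of-ratios scaling gave 25 and 134, TMM scaling 17 and 172, and a 2-fold threshold 4 and 64. Cells of at least 10000 UMIs gave 7 higher genes. A mean of at least 50 CPM gave 123 lower genes, and totals without Gm42418, AY036118, Gm26917 and Lars2, chosen after seeing the data, 112. Leaving out 1 library gave 11 to 20 higher and 393 to 2323 lower genes, the extremes of 20 and 2323 without control.

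Over the libraries' means, histones went from 0.14 to -0.45 and secreted and matrix genes from -1.51 to -0.68 at 10 to 100 UMIs, and mt- messages from 0.23 to -1.12 with the mt- limit applied to low-count barcodes. Directions turned for mt- messages in control (-0.080) and for length in bulk (rho 0.12) at 10 to 100 UMIs, and for mitosis in localized electroporation (0.036) with median-of-ratios scaling. Hydropathy in control had a rho of -0.17 above 500 and -0.10 above 200 UMIs, against 0.12. The interferon median in localized electroporation rested on few UMIs. It was 1.23 in the main setting, -0.27 above 500 UMIs and -0.20 without shared barcodes. It ran from -0.42 to 0.80 with 1 library left out of the gene filter. The cause of these moves was not tested. The bulk library has the smallest low-count sum, 2398741 UMIs, which limits genes of few CPM.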

Other observations

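Further families, added after values were seen, showed how the classes meet. The 85 Tmem genes, named only for a predicted membrane span, gave -0.59, -0.57 and -0.66 in control, bulk and localized electroporation, with 52 of 85 lower in both electroporated libraries, against 32.5% of all genes. The 23 genes of protein import into mitochondria gave -0.65, 0.04 and 0.16, with 0 of 23 lower in both. The 121 Zfp zinc finger genes gave -0.17, -0.45 and -0.59, and the control and localized values rose above 0 under some scalings (0.20 and 0.03). Rpn1, a subunit of the ER enzyme that attaches sugars to new proteins, had 65.8 CPM outside and 94.9 CPM inside cells of control, 22.9 and 91.0 in bulk, and 10.7 and 82.5 in localized electroporation. Its level inside cells varied little.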
